A study of Rattus norvegicus with 4 samples.

Results

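The genes described here are the enzymes that oxidise foreign and endogenous small molecules and attach a polar group to them. They were chosen by symbol: known genes (rows with a numeric gene identifier) whose symbol begins with Cyp1 to Cyp4, Ugt, Sult followed by a digit, or Gst. The rule found 59 genes among 14008 known genes and 17419 transcripts in all. By enzyme family, 27 belong to oxidation (Cyp), 8 to glucuronidation (Ugt), 6 to sulfation (Sult) and 18 to glutathione conjugation (Gst). Ugt8 is among the 8 by its symbol alone, as it is annotated as a galactosyltransferase.

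Foreign chemicals and steroids are usually cleared in steps. Cytochrome P450 enzymes of families Cyp1 to Cyp4 insert oxygen into the molecule, and transferases then add glucuronic acid (Ugt), sulfate (Sult) or glutathione (Gst), which makes it soluble for export. In the liver these enzymes are abundant, and bisphenol A (BPA) itself leaves the body mainly as a glucuronide and a sulfate. In brain, several members have other substrates, such as estrogens, neurosteroids, fatty acids, myelin lipids and products of lipid peroxidation.

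The study sequenced mRNA from rat frontal cortex on postnatal day 1, as the labels give it. The labels name the strain Wistar and the study's methods Wistar Furth, and the methods call the tissue prefrontal cortex and give the age as postnatal days 1 to 2. The mothers had been dosed with BPA at 5000 µg per kg of body weight, or with the vehicle (ethanol in corn oil), by mouth every day from gestation day 1 until birth. Each combination of sex and treatment is represented by 1 library, which gives a control and a BPA library for males and the same for females. Where 4 values stand in a row below, they are those of control then BPA males, followed by control then BPA females. The control mothers received the vehicle in the same way. Treated and control mothers were housed apart and had different litters, so effects of BPA, litter and housing cannot be told apart. The methods name 3 pups from separate litters for each sex and treatment and do not say whether their RNA was pooled into the library.

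Expression is given as FPKM, the fragments of a transcript scaled to its length and to the depth of the library, with 2 decimals and a lowest listed value of 0.01. The steps between low values gave depths of 8970750 to 9266500 fragments per library, from which the fragments behind each value were estimated. With 1 library on each side, a ratio between 2 libraries compares those libraries and has no replicate check. Its 95% exact interval, written in brackets, covers counting error only. Markers of cortical neurons were abundant in every library (10 of 10 listed), with summed FPKM of 3357, 3678, 3240 and 3515. Beyond counting error in both sexes, 4 of the 10 were higher and 2 lower with BPA. Limma, described below, called Neurod2 higher and Slc17a7 lower. The libraries also differed in markers of another tissue. The list of meninges and vessel wall fibroblasts held 14 markers (collagens, Dcn, Lum, Igf2, Foxc1 and others). All 14 were lower with BPA beyond counting error in both sexes, as were 9.28% of all known genes listed throughout. Limma called 9 of the 14. Summed over all 14, FPKM was 321.5 in the control male, 133.7 in the BPA male, 377 in the control female and 102.3 in the BPA female. None was at the lowest value. The study's methods state that the meninges were taken off at dissection. Markers of astrocytes and radial glia summed to 919.3, 809.1, 934 and 671.3 FPKM, with 6 of 10 lower beyond counting error in both sexes, and those of microglia to 36.9, 35.4, 39.2 and 25.9 FPKM. In bulk tissue, fewer cells of a type and less RNA per cell cannot be told apart.

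The neonatal cortex held a narrow set of these enzymes. Of the 59 genes, 48 were listed in all 4 libraries, 5 only in the male and 6 only in the female libraries. A mean FPKM of at least 1 was reached by 29 genes: 9 Cyp, 1 Ugt, 3 Sult and 16 of the 18 Gst. Summed over its members, the glutathione family was the most abundant, with 420 FPKM in the control male, 434.5 in the BPA male, 384.7 in the control female and 363.5 in the BPA female. Sulfation followed with 80.7, 73.9, 83.3 and 75.4 FPKM in the same order. The Cyp genes summed to 27.4, 21.9, 28.8 and 20.0 FPKM, and the Ugt genes to 3.78, 3.47, 4.12 and 3.20 FPKM. The order of the families was the same in all 4 libraries.

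**Figure D1:**
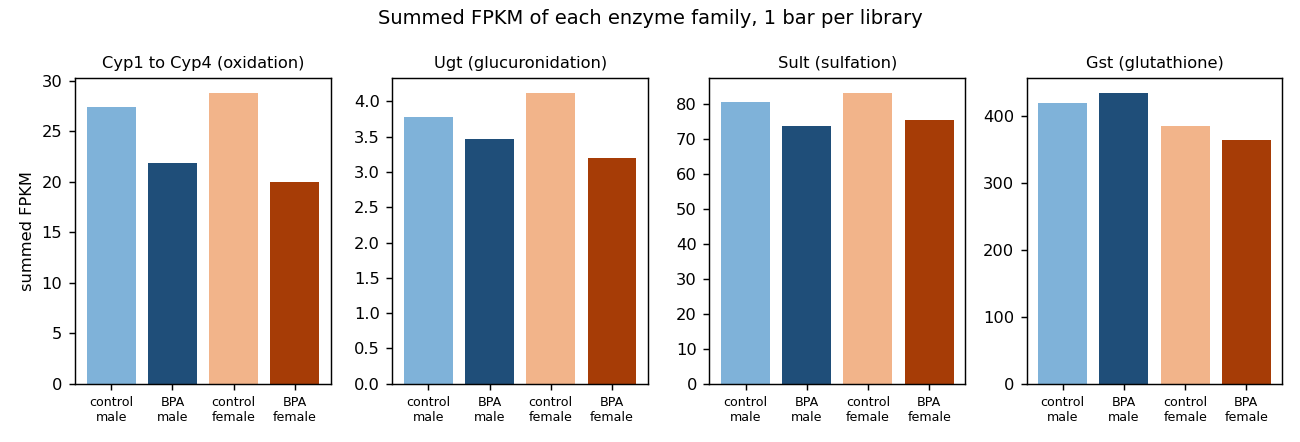
Summed FPKM of each enzyme family on a linear axis from 0, with 1 bar per library and a separate scale for each family. The Cyp, Ugt and Sult bars are lower in both BPA libraries than in both controls, while the 4 Gst bars lie between 363.5 and 434.5 FPKM and the control and BPA ranges overlap.

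By family, the oxidation genes had the lowest ratio of BPA to control of the 4 families. Their summed FPKM in BPA was 0.797 of the control in males and 0.695 in females, a log2 ratio of -0.33 and -0.53 (mean -0.43 ± 0.14 SD over 2 sexes). Both BPA sums lay below both control sums. Without Cyp1b1 the log2 ratios were -0.18 and -0.37 (mean -0.27 ± 0.14 SD). Between the sexes the same sum differed by a ratio of 1.05 in controls and 0.916 in BPA, female over male. For glucuronidation the log2 ratios were -0.12 and -0.36 (mean -0.24 ± 0.17 SD) and for sulfation -0.13 and -0.14 (mean -0.14 ± 0.011 SD). These sums depended on single genes. Without Ugt8 the glucuronidation ratios were -0.35 in males and 0.07 in females. Without Sult4a1 the sulfation ratios were 0.07 and -0.61, and without Sult1a1 they were -0.12 and -0.01. The glutathione sum was 1.03 of the control in males and 0.945 in females, a mean log2 ratio of -0.02 ± 0.092 SD that turned to 0.08 when each library was scaled to the same median FPKM. Oxidation, glucuronidation and sulfation stayed below 0 under that scaling, which raises BPA against control by 0.06 in males and 0.12 in females on the log2 scale. An exact permutation test of 2 against 2 libraries cannot give a two-sided p below 0.333, so none was run.

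Across all transcripts, limma with the sexes as replicates called 74 of 13163 tested at an adjusted p under 0.05 (0.562%), 60 of them lower in BPA. It called none of the 29 enzyme genes tested. Their adjusted p ranged from 0.0761 to 0.981. At an unadjusted p under 0.05 there were 9 enzyme genes (31%), of which 7 were lower (Cyp1b1, Gsta1, Gstm2, Cyp4f6, Sult1a1, Cyp2u1 and Gstt3) and 2 higher (Sult2b1 and Cyp4x1) in BPA, against 17.3% of all transcripts and, in a fit of known genes only, 21.1% of those. When the fit held known genes only, 4.49% of 10632 genes were called and 2 of the 29 enzymes (6.9%), Cyp1b1 and Gsta1, both lower. In the pairwise comparison on log2(FPKM + 0.5), 3 of 53 listed enzymes were at least 2-fold lower in the BPA male (5.66%, background 1.15%) and 5 of 54 in the BPA female (9.26%, background 2.18%). The male genes were Cyp2j4, Gsta1 and Gstm6, and the female genes Cyp1b1, Cyp2t1, Gsta1, Gstm2 and Sult1a1. None was 2-fold higher in either sex (background 0.341% and 0.251%). The counts depend on the pseudocount: with 0.1 in place of 0.5, 9 enzymes were lower in males (background 4.99%) and 9 lower and 1 higher in females (7% and 2.53%), and with 1, 1 was lower in males (0.489%) and 2 in females (1.17%). On log2(FPKM + 0.5), Gsta1 was the 1 enzyme past 2-fold in both sexes, where 0.514% of known genes were lower in both. Without the pseudocount, Cyp4f6 (ratios 0.372 and 0.482) and the scarce Cyp2j4 (0.0769 and 0.368) were also below 0.5 in both, among enzymes above 0.01 FPKM in every library. Between the control libraries none of 48 enzymes differed 2-fold (background 0.614%), and between the BPA libraries 2 did, Sult1a1 and Sult5a1 (background 0.798%). Sult5a1 was listed at 0.01 FPKM in the BPA male and 0.53 in the BPA female, from 4.8 fragments, and its counting interval included 1.

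Counting error was exceeded more often, among the enzymes as among all genes. In males the interval of the ratio lay below 1 for 7 of 53 enzymes (13.2%, background 17.2%) and above 1 for 2 (3.77%, background 10.5%). In females it lay below 1 for 13 of 54 (24.1%, background 19.3%) and above 1 for 1 (1.85%, background 9.48%). Cyp1b1, Cyp2u1, Cyp4f6 and Gsta1 were below 1 in both sexes, 4 of 48 enzymes listed throughout (8.33%), a share close to the background of 9.28%. No enzyme was above 1 in both (background 4.35%). The median log2 ratio of the listed enzymes was -0.07 in males and -0.17 in females, beside -0.04 and -0.06 for all known genes. At a mean FPKM of at least 1 it was -0.04 and -0.32, beside -0.04 and -0.05. Between the 2 control libraries the interval excluded 1 for 5 of 48 enzymes (10.4%, background 15.8%), and between the BPA libraries for 9 (18.8%, background 18.6%).

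**Figure D2:**
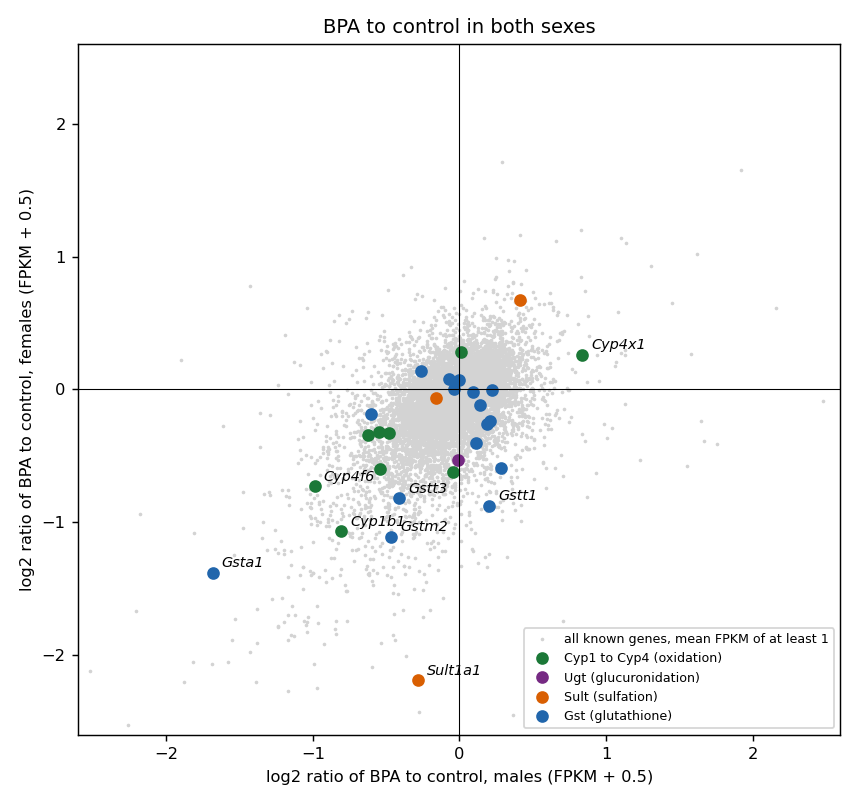
Log2 ratio of BPA to control, on FPKM + 0.5, in males (horizontal axis) and females (vertical axis) for the 29 enzyme genes with a mean FPKM of at least 1 (coloured by family) and for all 10632 known genes at that level (grey), 3 of which lie outside the axes. Most enzymes sit within the grey cloud, Gsta1 lies far to the lower left, and Sult1a1 lies low on the female axis only.

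Among the oxidation genes, Cyp1b1 had the lowest adjusted p, which was also the lowest of the 29 enzymes tested. It encodes the P450 that hydroxylates estradiol and polycyclic aromatic hydrocarbons, and it is a classic target of the aryl hydrocarbon receptor. Its FPKM was 7.03 in the control male, 3.81 in the BPA male, 6.73 in the control female and 2.95 in the BPA female, from 147.3, 79.3, 136.5 and 60.2 estimated fragments. Both BPA libraries lay below both controls, and the controls differed little from each other. The ratio of BPA to control was 0.542 [0.406 to 0.716] in males and 0.438 [0.316 to 0.594] in females. The limma log2 ratio was -0.94 ± 0.16 (SE, 2 libraries per treatment), with an adjusted p of 0.0761 over all transcripts and 0.0114 over known genes only. The meningeal markers given above were lower in the same libraries (ratios of their sums 0.416 and 0.271), and so, with ratios of 0.834 and 0.649, were those of endothelium and mural cells (summed FPKM 150.2, 125.2, 170.2 and 110.5). The part of either in the Cyp1b1 difference was not tested.

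The other receptor target genes of the Cyp1 family were near the floor. Cyp1a1, the standard reporter of aryl hydrocarbon receptor activation, was listed at 0.04, 0.04, 0.04 and 0.01 FPKM, where 3 fragments would correspond to 0.127 FPKM in the control male. Cyp1a2 was listed in the female libraries only, at 0.06 and 0.01 FPKM. A difference in either was not detectable at this depth. The receptor gene Ahr itself had an FPKM of 1.47, 1.98, 1.95 and 1.88, so the control and BPA ranges overlapped.

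The promoter of Cyp1b1 is shown because the receptor binds a short core, GCGTG, that can be sought in it. RefSeq promoter windows, from 250 bases before to 50 bases after each start, were found for 51 of the 59 genes (54 windows), all of 300 bases in build GRCr8. The core, searched on both strands, occurred in 20 of the 54 windows (37%) and in 29.7% of all 33469 windows. In the Cyp1b1 window it occurred 2 times, from base -81 on the opposite strand and from base -20 on the gene's strand, counted from the start site. The match is a description of the letters and not a measured binding site. The window lies at chr6:21094315-21094614, plus strand, and is printed 5′ to 3′ with the cores in capitals (CACGC is GCGTG read on the opposite strand).
Cyp1b1: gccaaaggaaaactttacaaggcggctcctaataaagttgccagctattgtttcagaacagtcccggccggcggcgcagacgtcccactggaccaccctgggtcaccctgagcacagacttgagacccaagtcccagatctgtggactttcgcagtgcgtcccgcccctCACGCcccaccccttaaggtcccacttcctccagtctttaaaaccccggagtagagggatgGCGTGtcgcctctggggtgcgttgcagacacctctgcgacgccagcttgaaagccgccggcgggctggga

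Cyp2u1 and Cyp4f6 had counting intervals below 1 in both sexes as well, and limma called neither. Cyp2u1, a P450 of brain and thymus that hydroxylates arachidonic acid, had 3.38, 2.17, 4.31 and 2.68 FPKM. Its ratio was 0.642 [0.506 to 0.816] in males and 0.622 [0.499 to 0.769] in females. Both BPA values lay below both controls, and the limma log2 ratio was -0.57 ± 0.20 SE with an adjusted p of 0.241. Cyp4f6, which hydroxylates fatty acids and leukotrienes, had 1.88, 0.70, 1.62 and 0.78 FPKM. The BPA values rest on 11.1 and 12.1 fragments, and the ratios were 0.372 [0.167 to 0.758] and 0.482 [0.219 to 0.986], again with no overlap of the groups. The female interval ended close to 1, and the limma adjusted p was 0.221.

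Cyp4v3, a fatty acid omega-hydroxylase, had 1.92, 1.07, 1.98 and 1.45 FPKM, with both BPA values below both controls. Its ratio was 0.557 [0.347 to 0.879] in males and 0.732 [0.474 to 1.11] in females. Cyp4f5 had 1.64, 0.96, 0.94 and 0.65 FPKM, and Cyp4f17 had 1.90, 1.83, 1.86 and 1.03 FPKM. For Cyp4f5 the BPA male and the control female were level, and for Cyp4f17 the BPA female alone was lower than the others (ratio 0.554 [0.292 to 0.970]). The 5 Cyp4f genes of the set lie within 23 consecutive genes, and sequence shared between such copies can shift fragments from one to another. Cyp2d4, the Cyp2d enzyme of rat brain, had 1.08, 0.63, 1.37 and 0.99 FPKM. Both BPA values lay below both controls, and both of its intervals included 1. Cyp2s1 had 1.39, 1.40, 1.09 and 1.43 FPKM, with both BPA values above both controls, narrowly in males, and both intervals included 1.

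Cyp4x1, a P450 expressed mainly in brain, was higher in BPA. It had 4.06 FPKM in the control male, 7.66 in the BPA male, 5.50 in the control female and 6.69 in the BPA female. Both BPA libraries lay above both controls. The ratio was 1.89 [1.35 to 2.67] in males and 1.22 [0.880 to 1.68] in females, and the limma log2 ratio of 0.55 ± 0.17 SE had an adjusted p of 0.205. It had the highest mean of the Cyp genes over the 4 libraries, and Cyp1b1 was higher than it in both controls. Without it the oxidation sum had a mean log2 ratio of -0.76 in place of -0.43, against -0.27 without Cyp1b1.

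Cyp2j4 and Cyp2t1 passed 2-fold at low levels. Cyp2j4, an epoxygenase of arachidonic acid, had 0.65, 0.05, 0.57 and 0.21 FPKM, with a single estimated fragment in the BPA male. Its ratio was 0.0769 [0.00182 to 0.516] in males and 0.368 [0.0840 to 1.22] in females. Cyp2t1 had 0.35, 0.49 and 0.94 FPKM in the control male, BPA male and control female and was listed at 0.01 in the BPA female. The upper limit of its ratio was 0.326 in females, whereas in males the ratio was 1.40 [0.385 to 5.63].

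Most of the Ugt sum came from a gene annotated as a galactosyltransferase. Ugt8, which makes the galactosylceramide of myelin, held 64.6% of the Ugt sum in the control male, with 2.44, 2.42, 2.71 and 1.72 FPKM. The male pair was level at a ratio of 0.992 [0.714 to 1.38]. The female pair had a ratio of 0.635 [0.441 to 0.907], and the limma adjusted p over both sexes was 0.581. Markers of the oligodendrocyte lineage, the cells that use Ugt8, summed to 208.4, 196.2, 219.5 and 195.8 FPKM, and their part in the difference was not tested. The Ugt1a genes, which conjugate bilirubin and phenols, and the Ugt2b genes, whose liver member conjugates BPA, stayed below 1 FPKM in every library. The 5 Ugt1a genes of the set end at 1 shared position in the annotation, so fragments from the common part cannot be assigned to 1 of them.

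The sulfation sum was dominated by Sult4a1, a sulfotransferase-like protein of neurons with no settled substrate. It held 87.2% of the family's FPKM in the control male and had 70.4, 63.1, 69.2 and 66.2 FPKM. The ratio was 0.896 [0.830 to 0.967] in males and 0.956 [0.885 to 1.03] in females, and the limma adjusted p was 0.380. Both BPA libraries were a little below both controls.

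The other 2 sulfotransferases at a mean of at least 1 FPKM went in opposite directions. Sult1a1, which sulfates small phenols including dietary and drug phenols, had 5.10 FPKM in the control male, 4.11 in the BPA male, 8.72 in the control female and 1.52 in the BPA female. The BPA values lay below both controls, and the female pair was far apart. Its ratio was 0.806 [0.529 to 1.22] in males and 0.174 [0.0959 to 0.299] in females, so the intervals of the 2 sexes did not overlap. They were apart in 5.65% of the 13033 known genes listed in all libraries. The limma log2 ratio was -1.24 ± 0.42 SE with an adjusted p of 0.227. The meningeal markers were also lower in the BPA female (102.3 summed FPKM) than in the BPA male (133.7), and their part in the Sult1a1 values was not tested. Sult2b1, which sulfates pregnenolone and cholesterol, had 4.79, 6.56, 4.30 and 7.16 FPKM. Both BPA libraries lay above both controls, with ratios of 1.37 [0.946 to 1.99] and 1.67 [1.14 to 2.45] and a limma log2 ratio of 0.55 ± 0.13 SE (adjusted p 0.142).

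**Figure D3:**
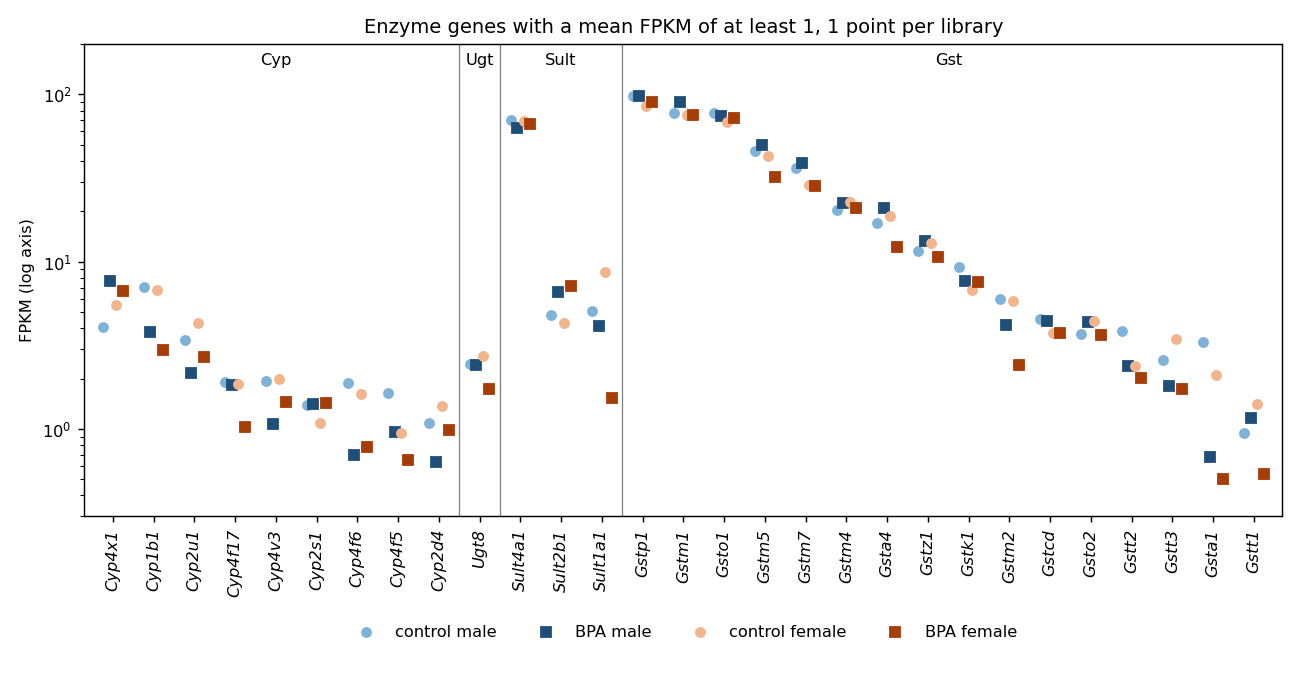
FPKM on a log axis of the 29 enzyme genes with a mean of at least 1, grouped by family and ordered by mean level, with 1 point per library (circles control, squares BPA, blue male, orange female). Gstp1, Gsto1, Gstm1 and Sult4a1 show 4 points close together, while Cyp1b1, Cyp4f6, Gstm2 and Gsta1 are among the genes with both squares below both circles.

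In the glutathione family the most abundant genes, Gstp1, Gsto1 and Gstm1, had 4 FPKM values that lay close together. Gstp1, the pi class enzyme, was the most abundant with 97.7, 97.3, 85.2 and 89.4 FPKM. Gsto1, an omega class enzyme that also reduces dehydroascorbate, had 77.7, 73.9, 68.2 and 72.2 FPKM. Gstm1, a mu class enzyme, had 77.6, 90.5, 75.0 and 74.9 FPKM. The counting interval of the ratio was as narrow as 0.891 to 1.11 for Gstp1 in males and 0.931 to 1.18 in females. It included 1 for Gstp1 and Gsto1 in both sexes, and for Gstm1 it lay above 1 in males alone (1.17 [1.05 to 1.29]).

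The remaining mu class genes differed among themselves. Gstm7 (36.5, 38.9, 28.6 and 28.2 FPKM) and Gstm4 (20.4, 22.5, 22.8 and 21.0 FPKM) had intervals that included 1 in both sexes. Gstm5 had 46.1, 49.96, 42.6 and 32.1 FPKM, with a ratio of 1.08 [0.913 to 1.29] in males and 0.754 [0.618 to 0.920] in females. Gstm2 was lower in both BPA libraries, at 5.97, 4.19, 5.80 and 2.42 FPKM. Its ratio was 0.702 [0.393 to 1.23] in males and 0.417 [0.200 to 0.820] in females, with a limma log2 ratio of -0.79 ± 0.24 SE and an adjusted p of 0.199. Gstm6 was scarce, at 1.10, 0.30, 0.73 and 0.62 FPKM, and its male ratio of 0.273 had an interval of 0.0492 to 1.04 that included 1. The 6 Gstm genes lie within 11 consecutive genes and are close copies, so their separate values are uncertain where they share sequence.

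Of the 29 enzymes tested, Gsta1 had the limma log2 ratio furthest from 0. The row carries the symbol Gsta1, and the file describes its product as glutathione S-transferase alpha-3. Alpha class enzymes conjugate electrophiles and some also isomerise steroids. Its FPKM was 3.29 in the control male, 0.68 in the BPA male, 2.10 in the control female and 0.50 in the BPA female, from 34.1, 7.0, 21.1 and 5.0 fragments. Both BPA libraries lay far below both controls. The ratio was 0.207 [0.0775 to 0.475] in males and 0.238 [0.0698 to 0.645] in females, and the limma log2 ratio was -1.53 ± 0.31 SE. The adjusted p was 0.107 over all transcripts and 0.0124 over known genes only. The few fragments in the BPA libraries limit its precision, and the part of the meningeal difference in it was not tested.

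The Gsta1 promoter is shown because alpha class genes are known targets of Nrf2 (gene Nfe2l2), which binds the antioxidant response element. Its core, TGACNNNGC searched on both strands, occurred in 8 of the 54 windows of these enzymes (14.8%) and in 12.1% of all windows. The Gsta1 window holds 1 match, which begins at base 31 of the transcript and is in capitals below. It lies at chr9:31216483-31216782 of GRCr8, minus strand, and is written 5′ to 3′. Nfe2l2 had 3.24, 3.23, 4.41 and 2.66 FPKM, level in males and lower in the BPA female.
Gsta1: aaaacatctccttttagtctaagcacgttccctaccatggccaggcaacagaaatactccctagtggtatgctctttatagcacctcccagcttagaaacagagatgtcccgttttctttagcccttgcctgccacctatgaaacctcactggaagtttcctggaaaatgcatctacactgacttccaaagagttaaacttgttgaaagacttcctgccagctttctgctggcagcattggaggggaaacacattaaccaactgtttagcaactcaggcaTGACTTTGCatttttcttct

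Gsta4, the alpha class enzyme that conjugates 4-hydroxynonenal from lipid peroxidation, had a ratio above 1 in males and below 1 in females. It had 17.1 FPKM in the control male, 20.9 in the BPA male, 18.6 in the control female and 12.2 in the BPA female. The ratio was 1.22 [0.963 to 1.55] in males and 0.656 [0.498 to 0.861] in females, and the intervals did not overlap. The control and BPA ranges therefore did overlap, and the limma adjusted p was 0.766. The astrocyte and microglia markers given above were also lowest in the BPA female, and their part in the lower female values of Gsta4, Gstm5, Gstm2 and Sult1a1 was not tested.

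Of the theta class, Gstt3 had 2.57, 1.81, 3.43 and 1.73 FPKM, lower in both BPA libraries, with a ratio of 0.704 [0.403 to 1.23] in males and 0.504 [0.284 to 0.848] in females. Gstt2 had 3.85, 2.36, 2.37 and 2.02 FPKM and Gstt1 had 0.94, 1.16, 1.41 and 0.54 FPKM, with intervals that included 1. For Gstt2 both BPA values lay below both controls, 1 of them narrowly. The 3 genes lie within 5 consecutive genes. Gstz1, the maleylacetoacetate isomerase of tyrosine breakdown, had 11.6, 13.3, 12.9 and 10.7 FPKM. Gstk1, of mitochondria and peroxisomes, had 9.30, 7.67, 6.81 and 7.56 FPKM. Gsto2 had 3.67, 4.33, 4.39 and 3.64 FPKM, and Gstcd, which carries a Gst-like domain, had 4.55, 4.42, 3.74 and 3.75 FPKM. For these last 4 genes every interval included 1 and the control and BPA ranges overlapped.

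**Figure D4:**
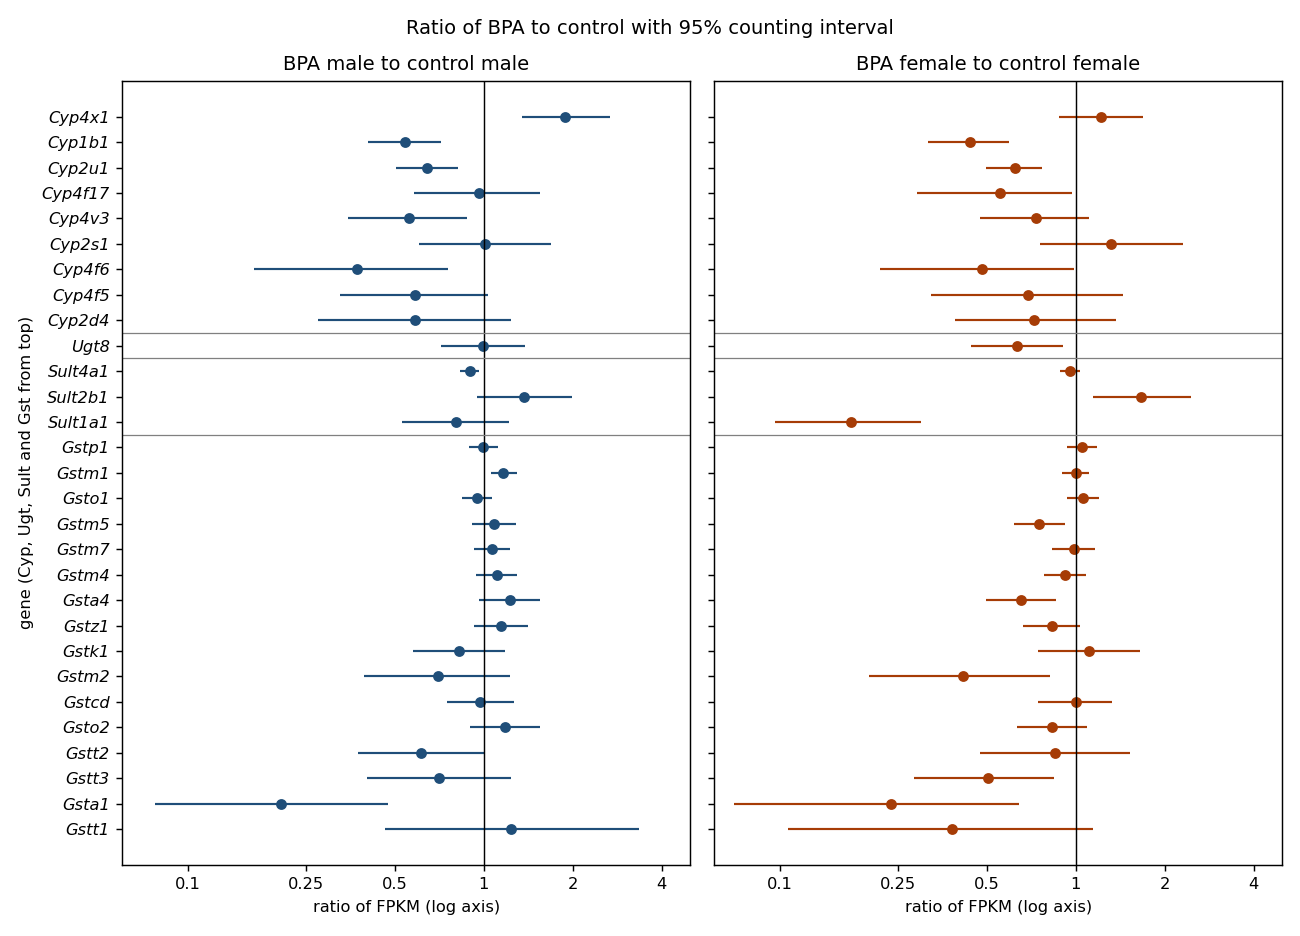
Ratio of FPKM in BPA to control on a log axis for the same 29 genes in males (left) and females (right), with lines for the 95% counting interval. The intervals of Cyp1b1, Cyp2u1, Cyp4f6 and Gsta1 lie below 1 in both panels, that of Sult1a1 only in females, and those of Gstp1 and Gsto1 are narrow and include 1.

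The 27 enzymes that met no rule for separate description never exceeded 0.89 FPKM or 18.3 estimated fragments in a library. They were Cyp1a1, Cyp1a2, Cyp2a3, Cyp2c6v1, Cyp2d1, Cyp2d2, Cyp2d5, Cyp2j3, Cyp2j10, Cyp2r1, Cyp3a23/3a1, Cyp3a62, Cyp3a9, Cyp4a8, Cyp4f1, Cyp4f4, Ugt1a1, Ugt1a2, Ugt1a6, Ugt1a7c, Ugt1a8, Ugt2b1, Ugt2b10, Sult1d1, Sult5a1, Sult6b1 and Gsta3. They include the main drug-metabolising P450 genes of liver, from Cyp2c to Cyp3a. Of all 59 enzymes, 21 were listed at 0.01 in at least 1 library.

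The other steps of the pathway were read from 7 lists of 69 genes, of which 63 were listed in all libraries and 51 tested. Limma called 1 of the 51, Slc7a11, which was lower (0.562% of all transcripts were called). Over known genes only it called 4 of the 51, all lower, beside 4.49% of all known genes: Slc7a11, Cbr3, Fmo1 and Maoa. Slc7a11, the cystine importer that feeds glutathione synthesis, had 12.2 FPKM in the control male, 5.76 in the BPA male, 14.7 in the control female and 5.41 in the BPA female. Both BPA libraries were less than 0.5 of their controls, with ratios of 0.471 [0.421 to 0.526] and 0.367 [0.328 to 0.410] and a limma log2 ratio of -1.20 ± 0.13 SE (adjusted p 0.0320). The meningeal marker sums had ratios of 0.416 and 0.271 in the same pairs, and their part in the Slc7a11 difference was not tested. On log2(FPKM + 0.5) it was the only gene of the 7 lists to pass 2-fold in both sexes. Without the pseudocount, Cbr3 (ratios 0.424 and 0.462) and the scarce Fmo5 (0.324 and 0.320) were also below 0.5 in both.

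The lists of the other steps differed less. The 5 electron donors of cytochrome P450 (Por, Cyb5a, Cyb5b, Cyb5r3 and Pgrmc1) had ratios of their summed FPKM of 0.939 in males and 0.932 in females, and limma called none. The 13 receptors and regulators, among them Ahr and Nfe2l2, had median log2 ratios of 0.03 and -0.13, and the 12 genes of cofactor supply -0.13 and -0.10. The 17 genes of other oxidation, reduction and hydrolysis had the lowest male median, -0.35, and -0.30 in females. Of the 15 listed throughout, 3 were below 1 beyond counting error in both sexes. For comparison, 9.28% of all known genes listed throughout were below 1 in both. Export had a median of 0.12 in males and -0.36 in females, deconjugation 0.04 and -0.17, and other conjugation -0.12 and -0.24, with no member called by limma.

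**Figure D5:**
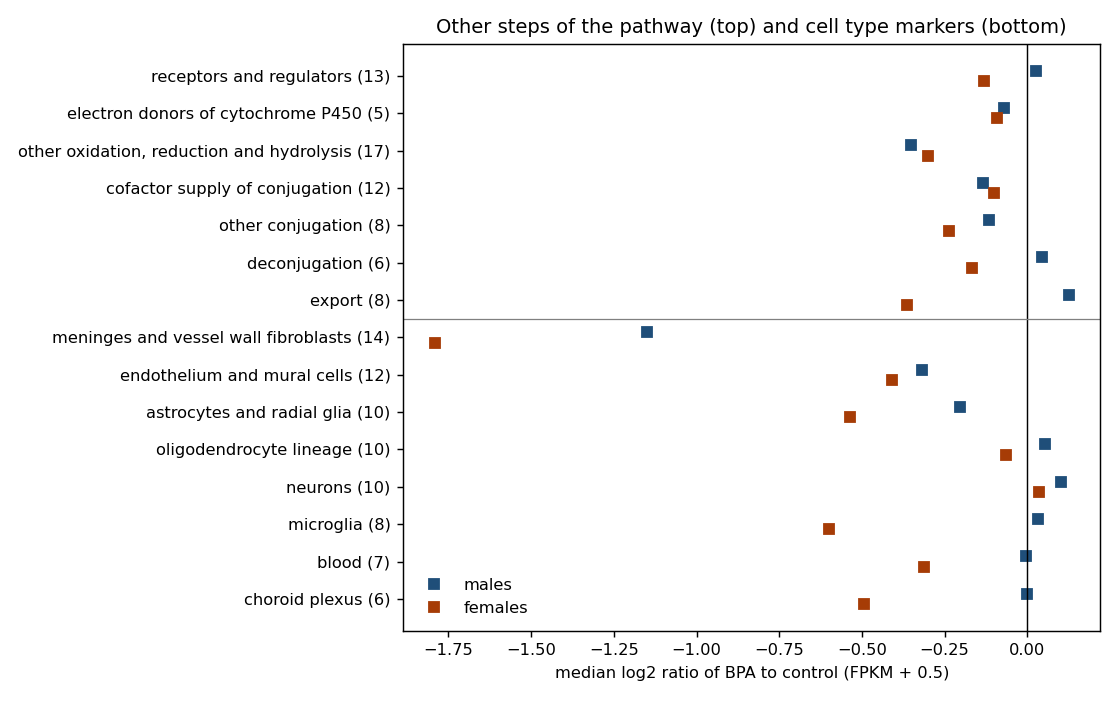
Median log2 ratio of BPA to control, on FPKM + 0.5, in males (blue) and females (orange) for 7 lists of other pathway steps and 8 lists of cell type markers, with the number of genes in each list in parentheses. The markers of meninges and vessel wall fibroblasts stand apart at -1.15 and -1.79, while the pathway lists lie between -0.36 and 0.12.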

How the data were processed

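The 4 tables held FPKM per transcript, which the authors computed with RSEM after aligning oligo(dT)-selected HiSeq reads with Bowtie 2 to the rat genome rn6 and deposited with 2 decimals. The labels also name HISAT, and versions are not given in the sources used here. Known genes were rows with a numeric identifier, and all 59 identifiers matched RefSeq. No count test was run. Depth was recovered from the steps of low FPKM, taking 60 bases off each length: 82.2% to 84.9% of scarce transcripts then lay within 0.1 of a whole fragment. Fragments gave Clopper-Pearson 95% intervals (scipy 1.17.1). PCR copies are not independent molecules, so these cover counting error only. limma 3.58.1 in R 4.3.3 was fitted with a trend to log2(FPKM + 0.5) of all 13163 transcripts with a mean of at least 1, and p-values were adjusted by Benjamini-Hochberg. The sexes served as replicates, which leaves 2 residual degrees of freedom, so p-values measure the spread between single libraries of either sex. The methods do not say that the male and female pups of a treatment came from different litters, so these 2 libraries may not be independent. Fold changes on this scale understate those of low genes. The fit and the intervals were run on simulated data without differences of sex, litter or cell composition, which checks the calculation only.

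Enzymes were named with values at a mean of at least 1, at 2-fold in a sex, or past counting error in both sexes. Pathway genes were named when limma called them or at 2-fold in both sexes, and Ahr, Nfe2l2, Cyp1a1, Cyp1a2 and the genes called over known genes only were added after their values were seen. The enzymes, lists and rules were chosen with earlier results of these data known. RefSeq sequences and gene order are from GRCr8, and no coordinates were converted. Alternatives were another pseudocount, filter, scaling or set of rows, a sex term, and leaving out each library.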

Additional observations from a re-analysis of the deposited data

Results flagged for a closer look

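For 3 of the 48 enzymes listed in all libraries, the counting intervals of the ratio of BPA to control did not overlap between the sexes. That share is close to the background of 5.65% of the known genes listed in all libraries. Sult1a1 had a ratio of 0.806 in males and 0.174 in females. Gsta4 had a ratio of 1.22 in males and 0.656 in females. Cyp2t1 had a ratio of 1.40 in males, from 5.0 and 7.0 fragments, and an upper limit of 0.326 in females, where BPA was listed at 0.01. With 1 library per sex and treatment, a difference between the sexes in the effect of BPA was not tested.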

How the results depend on the processing

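With known genes only, limma called 2 enzymes where it called 0 over all transcripts. Under each of the other alternatives for that fit, a sex term (replicate block by sex, 0 called) included, it called 0. Over these alternatives the adjusted p ranged from 0.0114 to 0.316 for Cyp1b1 and from 0.0124 to 0.330 for Gsta1, and both stayed lower in BPA. The number of enzymes at 2-fold was 9 in males and 10 in females with a pseudocount of 0.1, and 1 and 2 with a pseudocount of 1. It was 1 in males when a mean FPKM of at least 1 was required, which leaves out Cyp2j4 and Gstm6.

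The mean log2 ratio of the oxidation sum was -0.76 without Cyp4x1 and -0.27 without Cyp1b1, the latter chosen after seeing the data. That of the sulfation sum was -0.043 with median scaling, -0.097 with upper quartile scaling, -0.27 without Sult4a1 and -0.065 without Sult1a1 (chosen after seeing the data), and it lay between -0.16 and -0.11 when a library was left out. That of the glutathione sum was 0.076 with median scaling and lay between -0.15 and 0.11 when a library was left out: it was -0.15 without the BPA male and 0.11 without the BPA female. The number of enzymes below 1 beyond counting error in both sexes was 3 with median scaling, upper quartile scaling or a 99% interval, which were chosen after seeing the data, against 4.

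Of the Gst genes, 12 changed sign, none of them called; their fitted log2 ratios lay between -0.34 and 0.11. Median scaling gave 0.026 for Gstk1, 0.068 for Gsto2, 0.065 for Gstcd and 0.052 for Gstz1, and upper quartile scaling gave 0.020 for Gsto2, 0.018 for Gstcd and 0.00065 for Gstz1. Leaving out a library gave -0.089 to 0.098 for Gsto1, -0.025 to 0.24 for Gstm1, -0.066 to 0.13 for Gstp1, -0.67 to 0.0014 for Gstt1, -0.27 to 0.15 for Gstk1, -0.53 to 0.22 for Gsta4, -0.13 to 0.10 for Gsto2, -0.14 to 0.11 for Gstcd, -0.065 to 0.090 for Gstm4, -0.46 to 0.17 for Gstm5, -0.19 to 0.12 for Gstz1 and -0.19 to 0.26 for Gstm7. No other enzyme named with values and tested changed sign. Assembled transcripts carry no symbol, so they were summed into a gene by shared protein record, which among the enzymes concerned Gsta4 alone.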
